A study of Mus musculus with 9 samples.

Results

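The 6 liver arrays of the series were placed on 2 sides by the level of Hnf4a, the gene of a nuclear receptor that keeps hepatocytes in their mature state. The sides were chosen by the measured log2 value of Hnf4a: arrays under 9.5 formed the low side and those at 9.5 or more the high side, which gave 3 low-Hnf4a and 3 high-Hnf4a livers among the 9 arrays of the series. Each genotype lies on both sides: WT replicate 1 and KO replicates 1 and 3 are low, and WT replicates 2 and 3 and KO replicate 2 are high. The question followed here is which genes go with this structure of the samples and not with genotype. Hnf4a itself read 8.84, 7.80 and 7.16 in the low livers, and 10.53, 10.35 and 10.35 in the high livers. Because measured values chose the sides, everything that compares them below is a description and carries no test.

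The WT livers came from mice with loxP-flanked Notch1 (Notch1 lox/lox) and no Cre, and the KO livers from mice with the same allele plus MxCre, a Cre driven by the interferon-induced Mx promoter. All mice were C57Bl/6. Starting at 4 weeks of age they were injected with 300 µg poly(I:C), which mimics viral RNA and induces interferon, on day 0, day 3 and day 6, so both genotypes received the inducer and the KO mice alone carried Cre. MxCre is active in any cell that answers interferon, hepatocytes and blood cells among them, so the deletion is not one of a single cell type. Liver was snap-frozen, 3 animals per genotype. The other 3 arrays hold cell lines labelled as angiosarcoma (AS), a tumour of vessel-lining cells. The submitters describe them as derived separately from liver endothelial cells of tumour-bearing KO mice. Age at collection was not used here, and the RNA extraction protocol names "PHH", which the labels do not explain, so whether whole liver was extracted is not settled. The values, on the log2 scale, came from robust multi-array averaging of the 9 arrays and cover 19938 genes, and the number of arrays limits their precision. Throughout, values of the low livers are given in the order WT replicate 1, KO replicate 1, KO replicate 3, and those of the high livers in the order WT replicate 2, WT replicate 3, KO replicate 2.

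Hepatocytes make up most of the liver's mass. They secrete the plasma proteins, clotting factors and complement, dispose of ammonia as urea, make glucose and bile acids, and clear drugs through cytochrome P450 enzymes and conjugation. HNF4-alpha, the product of Hnf4a, works in a network with HNF1, FOXA, C/EBP and nuclear receptors that together hold most of these genes on. The remaining cells of the liver line its sinusoids (endothelial cells), take up particles (Kupffer cells), store vitamin A (stellate cells) or form bile ducts (cholangiocytes).

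Hepatocyte markers followed the sides, so the sides were hepatocyte-poor and hepatocyte-rich in the sense of these transcripts. Of 35 markers, 30 were measured, and 29 of these were lower on the low side by at least 1 log2 unit (2-fold) between the means of the sides and with no array of one side reaching the other. These markers share their arrays with Hnf4a, so the count describes the sides and is no independent check. The mean over the 30 markers was 10.74, 9.64 and 8.45 in the low livers and 11.95, 11.87 and 12.12 in the high livers. The low livers thus stood apart among themselves, with WT replicate 1 nearest to the high side and KO replicate 3 farthest from it. Fewer hepatocytes in the sample and less of these transcripts in each hepatocyte cannot be told apart in such bulk RNA. The exception was Alb, the gene of serum albumin, at 13.84, 13.52 and 12.14 on the low side and 13.87, 13.96 and 13.86 on the high side. Its arrays did not overlap either, but the difference of the means was -0.73 log2 units, at levels near the top of the table, whose maximum is 14.27.

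**Figure D1:**
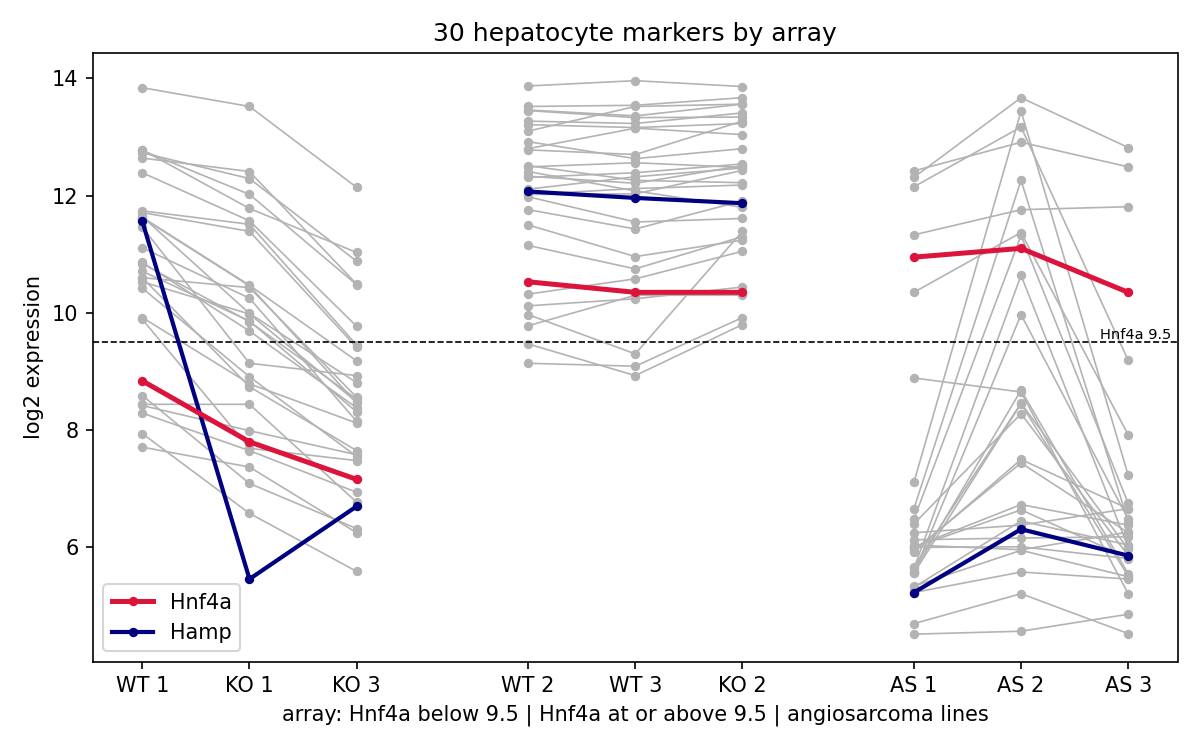
Log2 expression of the 30 measured hepatocyte markers (vertical axis) in the 9 arrays (horizontal axis), grouped as low-Hnf4a livers, high-Hnf4a livers and AS lines. Each line joins 1 gene within a group, with Hnf4a in red, Hamp in dark blue and the dashed line at the Hnf4a threshold of 9.5. The high livers lie close together, most markers step down from WT 1 to KO 3 among the low livers, and Hnf4a is as high in the AS lines (10.95, 11.10 and 10.35) as in the high livers.

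Over all genes, the arrays did not fall into 2 tidy sides. WT replicates 2 and 3 were the closest pair, with 35 genes differing by 1 log2 unit or more, and KO replicates 1 and 3 differed in 254. WT replicate 1 stood apart from both sides: it differed from each of the other 5 livers in 855 to 1126 genes. KO replicate 2 differed from WT replicates 2 and 3 in 297 and 286 genes. In a principal component analysis of the 6 livers the first component, with 64.1% of the variance, placed the high livers at -34.69, -34.49 and -30.2 and KO replicates 1 and 3 at 43.45 and 55.89, with WT replicate 1 between them at 0.05. The second, with 18.5%, set WT replicate 1 at 41.94, while the other 5 lay between -20.82 and 0.24. Y-linked transcripts separated 1 animal from the rest: Eif2s3y read 8.66 and Uty 8.35 in KO replicate 3 and from 3.86 to 4.28 in the other 5 livers. KO replicate 3 was therefore the one liver with Y-linked expression, and sex and side cannot be told apart for it. Notch1, the targeted gene, read 11.69, 11.02 and 11.71 in WT replicates 1 to 3 and 7.84, 8.75 and 8.52 in KO replicates 1 to 3, which did not overlap and matched the genotype labels.

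Genes that followed the sides lay almost all in one direction. Of 19938 genes, 780 (3.91%) were lower in the low livers by at least 1 log2 unit with no overlap, and 13 (0.0652%) were higher. With no limit on size, 2168 (10.9%) were lower without overlap and 1066 (5.35%) higher. By the same limit of size, 137 genes (0.687%) were higher in KO than in WT and 55 (0.276%) lower, and with no limit on size 3829 (19.2%) and 2208 (11.1%). The 2 ways of splitting the livers cross, so no gene can belong to both. The 780 had a median difference of -1.88 log2 units, and 346 of them were lower by at least 2 and 43 by at least 3. Around the limit itself, the 5 genes just inside lay at -1.0025 to -1.0109 and the 5 just outside at -0.9962 to -0.9895, so the limit falls in a continuous range. The count of 13 higher genes depends on single arrays: it was 276 without WT replicate 1 and 67 without KO replicate 2, whereas the count of lower genes ran from 754 to 874 when any 1 liver was left out.

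A drop within each genotype was required by the rule, since each genotype lies on both sides, and its size was larger within KO. For the 780 genes the median difference was -1.24 between WT replicate 1 and the mean of WT replicates 2 and 3, and -2.35 between the mean of KO replicates 1 and 3 and KO replicate 2. It was larger within KO for 710 of them, and 522 were lower by at least 1 log2 unit within both. WT replicate 1 had the highest value of the low side in 663 genes, and KO replicate 3 the lowest in 599. The order WT replicate 1 over KO replicate 1 over KO replicate 3 held for 536. The median range over the 3 low livers was 0.98 log2 units, against 0.45 over the 3 high livers. Over all 19938 genes the differences within WT and within KO correlated at Pearson's r of 0.48 and Spearman's rho of 0.14, a description across genes that are not independent of each other.

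**Figure D2:**
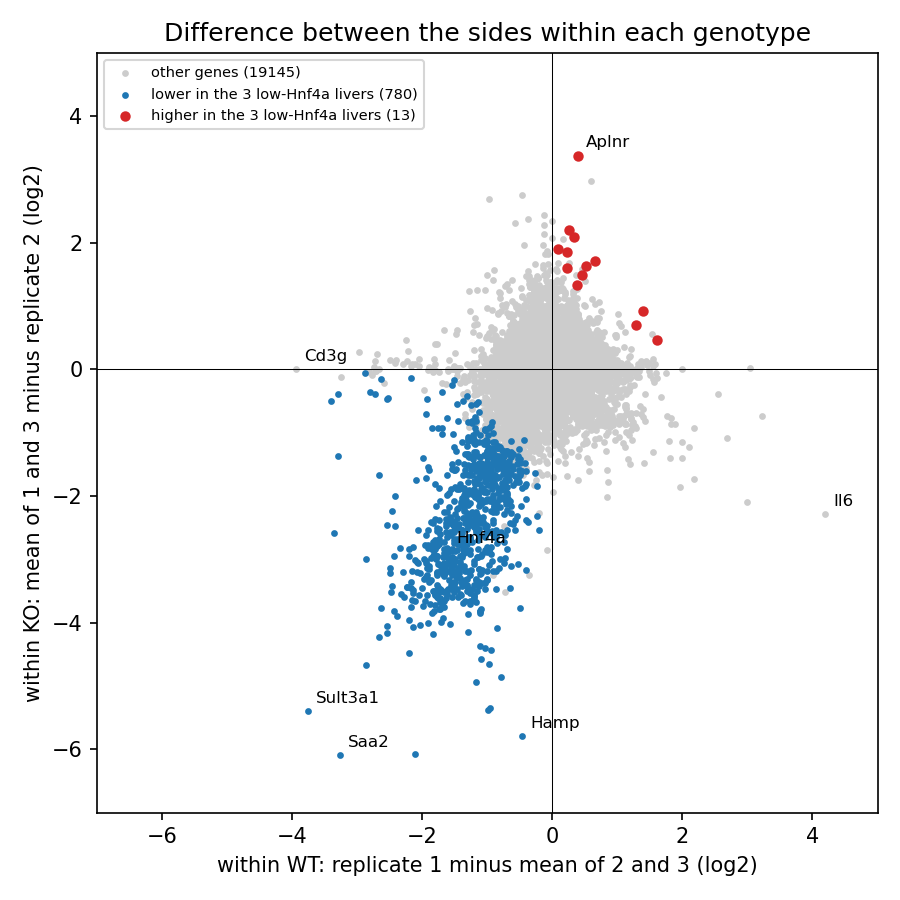
Each point is 1 of 19938 genes, placed by the difference between the sides within WT (horizontal, log2) and within KO (vertical, log2). The 780 genes lower on the low side (blue) lie below 0 on both axes, as the rule requires, most of them farther down than to the left. The 13 higher genes (red) lie above 0 on both, also by the rule, and genes such as Cd3g and Il6 lie along or across an axis.

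The 12 genes with the widest gap between the sides include enzymes, transporters, complement genes and a growth factor receptor. Predicted genes and similar symbols were left out of this ranking. Sult3a1, a sulfotransferase that is higher in female than in male mouse liver, read 5.11, 4.26 and 4.01 in the low livers and 8.86, 8.90 and 9.54 in the high livers. The difference of the means was -4.64 log2 units and the gap between the nearest arrays the widest in this ranking. Slco1a1, an uptake transporter for organic anions, read 5.90, 6.02 and 5.85 against 8.80, 8.72 and 8.94. All 3 low livers lay at one level for this gene, irrespective of genotype. Adh4, an alcohol dehydrogenase that also oxidises retinol, read 7.61, 6.69 and 5.94 against 10.24, 10.30 and 10.53. Cyp3a16 read 4.07, 3.99 and 3.81 against 7.34, 7.51 and 6.49, and Cyp3a44 read 5.79, 5.73 and 4.98 against 8.27, 8.29 and 8.56, both being P450 genes of the steroid- and drug-oxidising 3A family. The sequences of that family are close, so a probe set of one member can pick up another, and the same holds for Ugt2b1, Sult3a1 and Slc22a26.

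The others of the 12 showed the same picture. Mbl1, a mannose-binding lectin of the complement system, read 6.51, 6.17 and 5.60 against 8.79, 9.18 and 9.40. C8a, a chain of the membrane attack complex, read 6.44, 6.44 and 6.12 against 8.66, 9.31 and 8.73, with the 3 low livers close together. Egfr, the receptor for epidermal growth factor, read 7.92, 8.05 and 7.54 against 10.23, 10.45 and 10.74, and here KO replicate 1 was slightly above WT replicate 1. The remaining 4 were Ugt2b1 (a glucuronosyltransferase), Ces3b (a carboxylesterase), Slc22a26 (an organic anion transporter) and Slc13a3 (a dicarboxylate transporter), with differences of -3.12, -3.38, -3.35 and -2.55 log2 units. By the rule, no low liver reached a high one in any of the 12. Between the genotypes, which mix the sides, Sult3a1 had a KO minus WT difference of -1.69 log2 units (SE 1.85) with an adjusted p of 0.593 in limma. Sult3a1 was picked for its gap between the sides, which lies within each genotype and enters this SE. The p therefore cannot decide on a genotype effect.

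**Figure D3:**
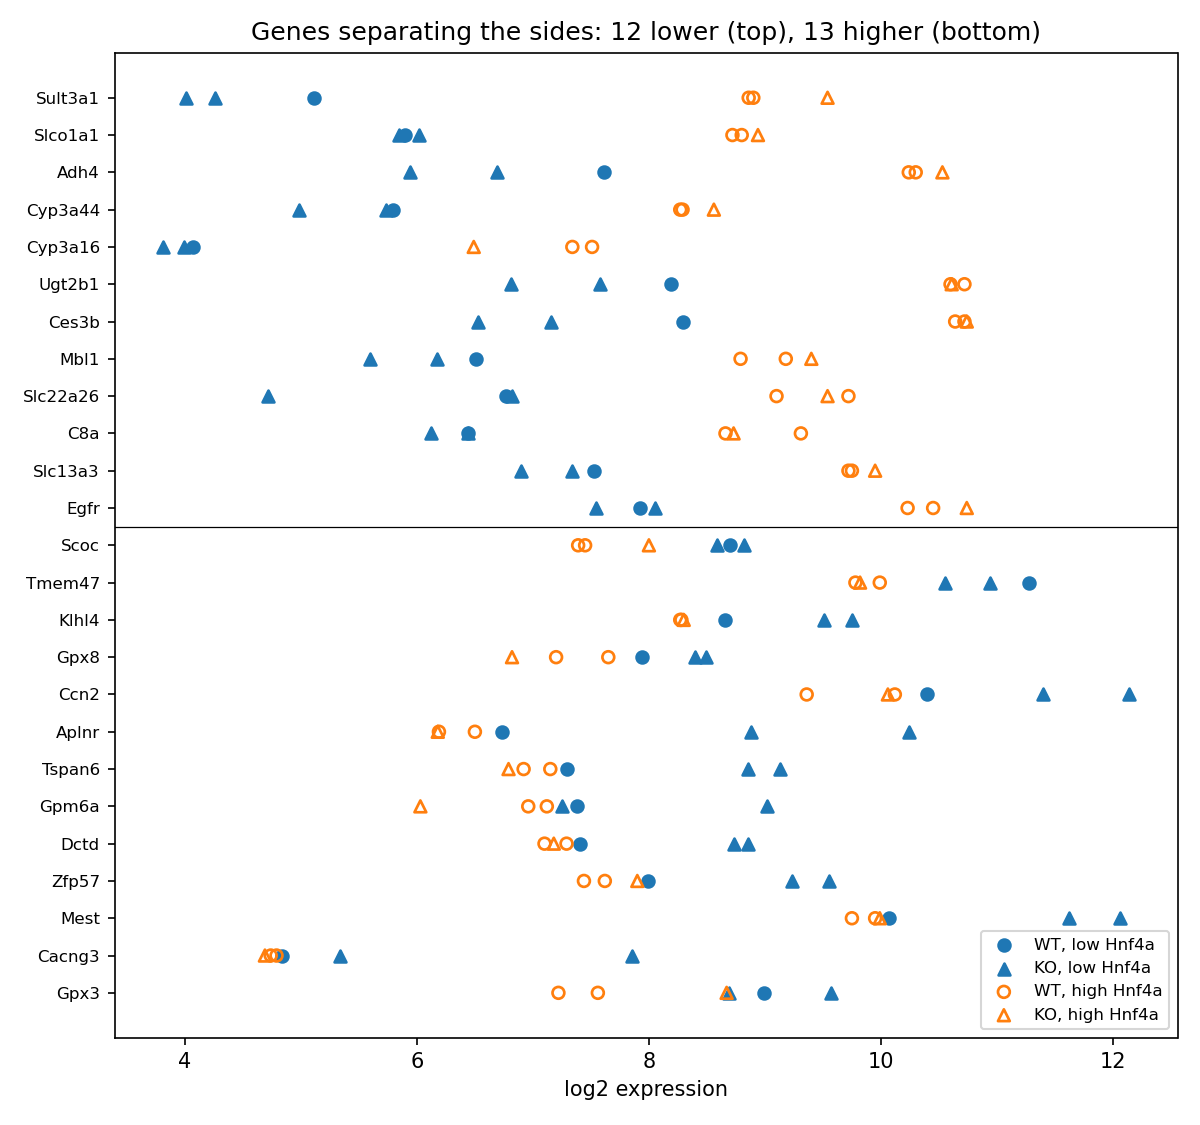
Log2 expression (horizontal axis) of the 12 lower genes with the widest gap (top) and of all 13 higher genes (bottom) in the 6 livers. Predicted genes and similar symbols were left out of the ranking by gap. Circles are WT and triangles KO, filled blue for the low-Hnf4a side and open orange for the high-Hnf4a side. In the lower genes filled circles and triangles lie to the left of all open symbols, while in many of the higher genes the filled circle of WT replicate 1 lies next to the open symbols.

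Lists of genes for liver functions put these genes in context. Of the 42 lists, 16 had a median difference between the sides of -1 or below, against 0.02 over all genes. Of the 780 lower genes, 317 were in a list or among the hepatocyte markers. The lists were written by hand, many for hepatocyte functions, and hold 1383 entries, 160 of them not measured and some repeated between lists. The share of all genes in a list was not computed. Secreted proteins were among the most uniform. Of 28 measured genes of coagulation and fibrinolysis, 27 were lower (median -2.48). Serpina10, the inhibitor of factor X that works with protein Z, read 7.33, 6.91 and 6.46 against 9.35, 10.17 and 10.50, and F13b, a subunit of the fibrin-stabilising factor, 7.24, 6.55 and 5.87 against 9.28, 9.56 and 9.57. Pros1, the gene of protein S, was the exception, with a difference of 0.15. Of 18 complement genes made by liver, 15 were lower (median -2.25), among them C8b at 8.51, 7.59 and 7.10 against 10.57, 10.87 and 10.29. Of 30 plasma carriers and apolipoproteins, 26 were lower (median -2.01), and Apoe, which macrophages also make, had a difference of -0.19. Apof, a regulator of lipid transfer between lipoproteins, read 9.16, 8.08 and 7.0 against 10.75, 11.11 and 11.08.

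Most detoxification genes followed the sides too. Of 40 cytochrome P450 genes of families 1 to 4, 31 were lower (median -2.51), and of 35 phase II conjugating enzymes, 27 (median -2.0). Cyp3a13 read 7.05, 6.71 and 5.31 against 9.16, 10.01 and 10.17. Ugt3a1, a glycosyltransferase, read 7.29, 5.11 and 5.41 against 9.58, 9.39 and 9.74, with both KO livers well below WT replicate 1. Cyp2b9 and Cyp2b13 are P450 genes higher in female than in male mouse liver. Cyp2b9 read 11.23, 9.02 and 5.19 against 12.40, 12.04 and 12.48, and Cyp2b13 read 8.65, 5.13 and 4.84 against 9.74, 9.12 and 9.84. KO replicate 3, the liver with Y-linked expression, had the lowest value of both, but KO replicate 1, without it, also lay below all high livers. Over the list of 19 genes higher in female liver the median difference was -1.46 with 14 lower, and over the 22 genes higher in male liver -1.07 with 12 lower, so both lists lay in one direction. Cyp4a12a, a male-type P450, read 7.62 in KO replicate 3 and from 4.52 to 5.09 in the other livers. The part of sex in these values was not tested.

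Intermediary metabolism gave the next large groups. Of 40 genes of the urea cycle and amino acid breakdown, 35 were lower (median -2.33), of 17 of gluconeogenesis and glycogen 16 (median -2.17), and of 26 of bile acid synthesis and transport 24 (median -2.22). Tdo2, the first enzyme of tryptophan breakdown, read 9.89, 7.69 and 7.48 against 11.50, 10.96 and 11.24. Pck1, which commits carbon to glucose synthesis, read 10.42, 8.91 and 7.55 against 11.76, 11.43 and 11.91. Both show KO replicates 1 and 3 well below WT replicate 1. Abcb11, the pump that moves bile salts out of the hepatocyte, read 8.20, 7.31 and 5.99 against 10.37, 10.59 and 10.24. Slc27a5, which activates bile acids for conjugation, had a difference of -3.11 log2 units and Cyp7a1, the rate-limiting enzyme of their synthesis, one of -2.70. Hal, the histidine-breaking enzyme of periportal hepatocytes, had a difference of -2.96 but did overlap: it read 8.87, 6.13 and 5.29 against 9.99, 10.73 and 8.46, so that KO replicate 2 lay below WT replicate 1.

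Lipid genes followed less completely. Of 31 genes of fatty acid oxidation and PPAR-alpha targets, 18 were lower (median -1.12), of 30 of cholesterol and fatty acid synthesis 17 (median -1.18), and of 37 peroxisomal genes 20 (median -1.09). Fabp1, the fatty acid carrier of hepatocytes, read 10.84, 9.85 and 8.53 against 12.31, 12.39 and 12.54. Of 47 genes of the mitochondrial respiratory chain 0 were lower by 1 log2 unit, but 27 were lower without overlap, against 10.9% of all genes, with a median of -0.25. Uqcrq, a subunit of complex III, read 9.79, 9.73 and 9.64 against 10.42, 10.40 and 10.52. Ribosomal protein genes (median 0.09 over 34) and housekeeping genes (median -0.01 over 14) had no such side.

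Both zones of the lobule followed the sides. Hepatocytes near the portal vein and near the central vein express different enzymes, and many of each set were lower: 14 of 21 periportal genes (median -2.04) and 18 of 24 pericentral genes (median -1.79). Rgn, a calcium-regulated lactonase, read 8.57, 7.86 and 6.86 against 10.84, 10.88 and 10.56. Cyp2f2, a periportal P450, did not follow the sides. It read 11.29, 7.06 and 6.99 on the low side and 11.86, 12.17 and 10.55 on the high side, so that WT replicate 1 lay above KO replicate 2. Every KO liver was below every WT liver in Cyp2f2, as in Hal, and 3 of the 21 periportal genes were lower in KO by the limit of size, against 0.276% of all genes. Glul, the glutamine synthetase of the last hepatocytes around the central vein, had a difference of -0.53 log2 units.

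The regulators of these genes followed the sides in part. Of 33 hepatocyte transcription factors and receptors, 14 were lower (median -0.78) and 23 lower without overlap at any size. Ppara, the receptor for fatty acids that drives their oxidation, read 7.56, 7.17 and 6.41 against 9.30, 9.07 and 9.87. Foxa3, a pioneer factor of endoderm, read 6.20, 6.46 and 5.83 against 8.17, 7.92 and 8.98. Both kept low and high livers apart by more than 1 log2 unit. Foxa1 and Foxa2 had differences of -0.78 and -0.58, short of the limit of size. Rxra, the shared partner of nuclear receptors, had one of -0.21, and Nr5a2 and Hhex -0.04 each.

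**Figure D4:**
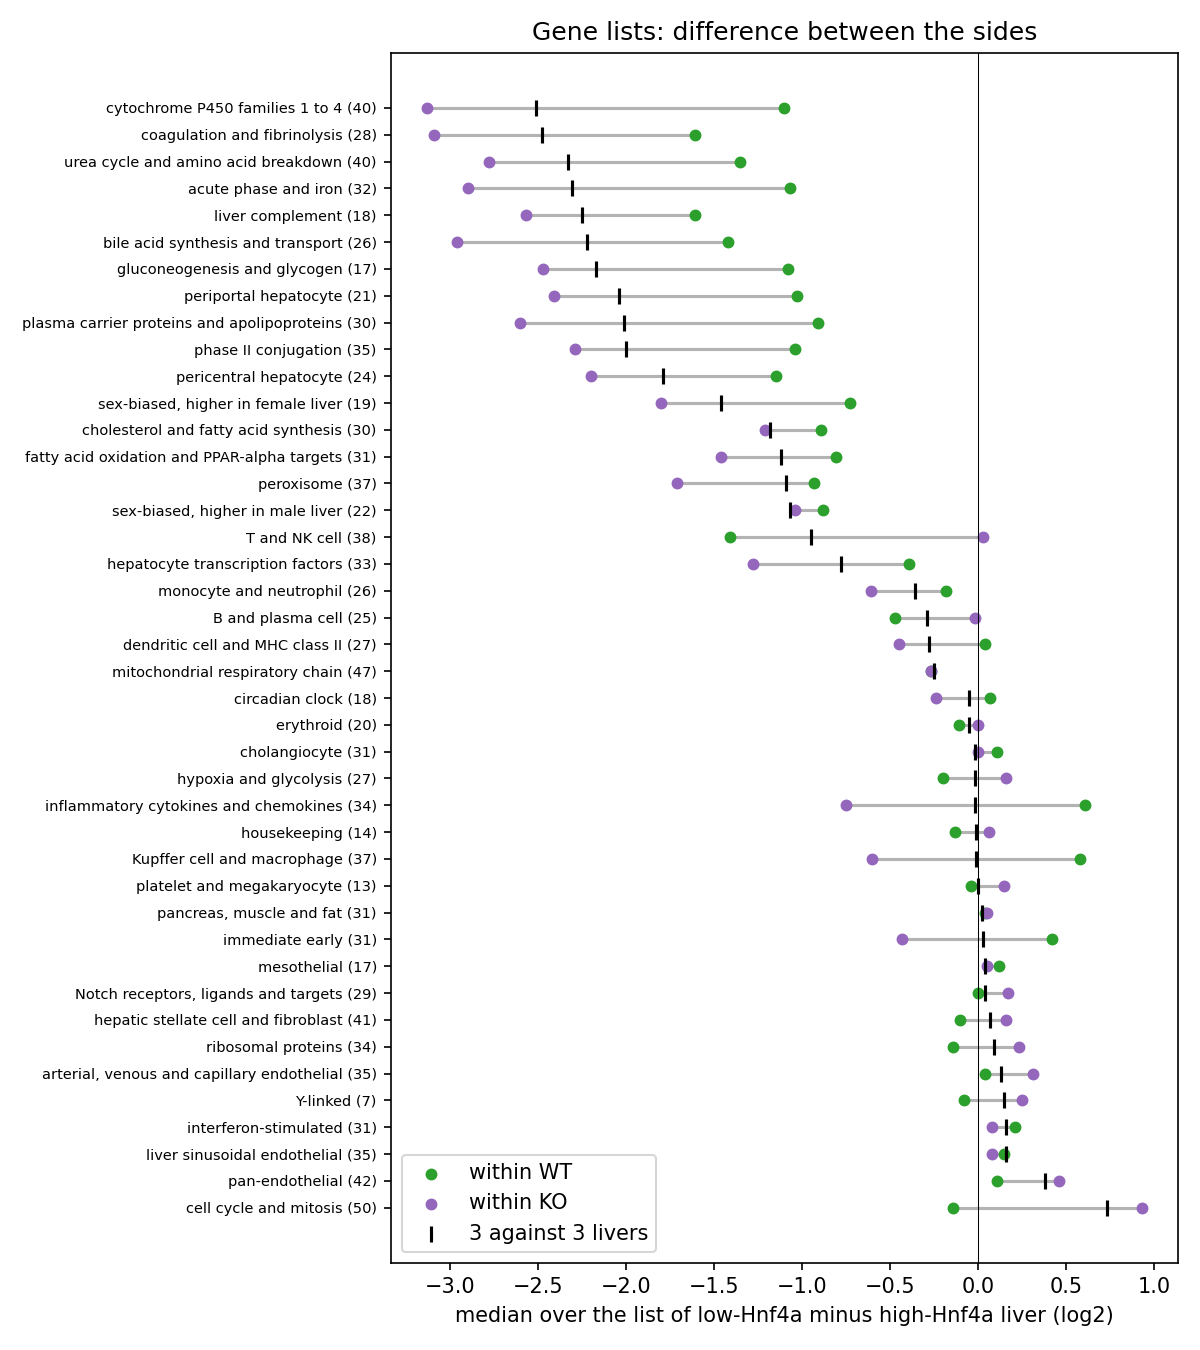
Median difference between low- and high-Hnf4a livers (horizontal axis, log2) for each of the 42 gene lists, with the number of measured genes in brackets. Green points are medians within WT, purple within KO, and black bars those of 3 against 3 livers. The lists of hepatocyte function lie to the left with the purple point farther out in most, and the T and NK cell, cell cycle, Kupffer cell and inflammatory lists have points far apart or on both sides of 0.

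Promoter sequences of genes that moved together are shown for 4 of the lower genes, because they hold a short motif that is known from the regulators named above. A RefSeq promoter (250 bases before to 50 after the start, build GRCm38.p6) was found for 604 of the 780 lower genes and for 15614 measured genes. The motifs, read on both strands, were CAAAGTCCA (HNF4-specific), CAAAGGTCA (nuclear receptor half-site), GTTAATNAT (HNF1 half-site) and TTGCGCAA (C/EBP, the same on both strands), and no match of one is a match of another. CAAAGTCCA was in 19 of the 604 (3.15%), against 0.564% of the 15614 measured genes and 0.475% of all 32851 promoters. GTTAATNAT was in 26 (4.3%), against 0.801% and 0.801%. CAAAGGTCA was in 11 (1.82%), against 0.5% and 0.478%, and TTGCGCAA in 2 (0.331%), against 0.256% and 0.183%. Most lower genes thus had none of these letters in this window. Printed 5′ to 3′ on the strand of the gene are the 250 bases before the start, with the match in capitals. Cyp3a16 (chr5:145469724-145469973, minus strand) and its family member Cyp3a11 (chr5:145879855-145880104, minus strand) have the HNF4-specific motif at -99 and -109 from the start. Cyp8b1 (chr9:121916306-121916555, minus strand), the enzyme that sets the share of cholic acid among bile acids, has it at -67. Fga (chr3:83025903-83026152, plus strand), the fibrinogen alpha chain, has the HNF1 half-site at -46, on the opposite strand.
Cyp3a16: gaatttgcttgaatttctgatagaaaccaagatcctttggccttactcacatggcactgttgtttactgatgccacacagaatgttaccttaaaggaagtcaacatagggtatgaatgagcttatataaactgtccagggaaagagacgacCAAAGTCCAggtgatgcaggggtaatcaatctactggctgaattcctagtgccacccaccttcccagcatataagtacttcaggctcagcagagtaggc
Cyp3a11: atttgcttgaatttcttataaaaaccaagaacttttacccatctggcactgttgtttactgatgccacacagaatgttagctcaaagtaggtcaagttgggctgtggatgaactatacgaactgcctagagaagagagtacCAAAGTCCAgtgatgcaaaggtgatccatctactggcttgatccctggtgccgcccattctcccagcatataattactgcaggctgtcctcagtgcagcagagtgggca
Cyp8b1: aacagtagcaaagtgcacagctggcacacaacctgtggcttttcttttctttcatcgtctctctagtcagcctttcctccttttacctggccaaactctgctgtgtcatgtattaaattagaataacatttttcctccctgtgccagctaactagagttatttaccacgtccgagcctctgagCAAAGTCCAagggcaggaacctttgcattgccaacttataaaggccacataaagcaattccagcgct
Fga: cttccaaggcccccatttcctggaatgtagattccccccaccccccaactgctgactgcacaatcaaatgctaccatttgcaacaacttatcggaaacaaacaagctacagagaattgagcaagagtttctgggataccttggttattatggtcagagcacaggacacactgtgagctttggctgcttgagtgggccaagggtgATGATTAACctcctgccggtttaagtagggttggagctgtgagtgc

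The 4 genes printed were lower on the low side as follows. Cyp8b1 read 8.42, 7.99 and 7.58 against 9.97, 9.30 and 11.39, with WT replicate 3 the nearest high liver. Cyp3a11 read 9.92, 8.79 and 8.12 against 11.15, 10.75 and 11.30, and Fga read 8.44, 8.44 and 6.77 against 10.32, 10.58 and 11.05. A match of letters is a description of the sequence and shows no binding.

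Acute phase genes split by array as well as by side. Of 32 genes of the acute phase and of iron handling, 22 were lower (median -2.31). Saa2, a serum amyloid made by liver on inflammatory signals, read 6.82, 5.16 and 6.37 against 8.88, 11.30 and 11.85, so that the high livers themselves spread widely, with WT replicate 2 lowest. Apcs, serum amyloid P, read 6.98, 7.90 and 5.12 against 9.28, 10.43 and 11.18. Hamp, the gene of the iron hormone hepcidin, was different: it read 11.56, 5.46 and 6.70 against 12.07, 11.96 and 11.87. WT replicate 1 lay just under the high livers, and KO replicates 1 and 3 far below it. Mt1 and Mt2, metallothioneins that many cell types make, had differences of -0.07 and -0.08.

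Hamp was 1 of 10 genes picked out by size of difference after their values were seen. In these, WT replicate 1 sat with or close to the high livers and KO replicates 1 and 3 were low. The smallest difference within KO among the 10 was -2.04 log2 units, in Dsp. The 10 are not all genes with this pattern: Ggact, outside them, read 8.75, 7.33 and 7.26 against 9.11, 8.83 and 9.14. The share of all genes with it was not computed. Of the 10, 9 are among the 780 lower genes, and in Tm4sf4 WT replicate 1 overlapped the high livers. The others were Bche, Cyp17a1, Tm4sf4, Echdc2, Upp2, Krt8, Slc16a7, Ttr and Dsp. Cyp17a1, a steroid hydroxylase, read 9.38, 7.37 and 5.85 against 9.81, 9.75 and 9.78. Krt8, a keratin of hepatocytes and bile duct cells, read 11.13, 9.23 and 8.32 against 11.71, 11.36 and 11.15. Hamp had a KO minus WT difference of -3.85 log2 units (SE 1.66) with an adjusted p of 0.244 in limma, and KO replicate 2 was nearly as high as the high WT livers. The 10 genes were picked for a spread within KO, which enters this SE, so the p cannot decide on a genotype effect.

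The 13 higher genes are a smaller and less even group, and in most of them the KO livers led. Both KO replicates 1 and 3 lay above WT replicate 1 in 9 of the 13, and in 8 WT replicate 1 was less than 0.5 above the mean of WT replicates 2 and 3. Aplnr, the receptor for apelin on endothelial cells, read 6.73, 10.24 and 8.88 against 6.50, 6.19 and 6.18. Mest, an imprinted gene of growing tissue, read 10.07, 12.06 and 11.62 against 9.95, 9.75 and 9.99. In both, WT replicate 1 lay only just above the high livers. Ccn2, the connective tissue growth factor, read 10.40, 12.14 and 11.40 against 10.12, 9.36 and 10.06. Scoc and Tmem47 were the ones with the widest gap, and in these the 3 low livers lay together. Scoc, a coiled-coil protein of the Golgi, read 8.70, 8.59 and 8.82 against 7.45, 7.39 and 8.0, and Tmem47, a membrane protein of cell junctions, 11.28, 10.55 and 10.94 against 9.99, 9.78 and 9.82. Gpx3, the plasma glutathione peroxidase, read 8.99, 9.57 and 8.69 against 7.56, 7.22 and 8.67, so the sides all but touched. The other 7 were Klhl4, Gpx8, Tspan6, Gpm6a, Dctd, Zfp57 and Cacng3, higher by 1.02 to 1.47 log2 units.

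Among markers of the other cell types, 2 of the 13 higher genes were found, Aplnr in an endothelial and Gpm6a in the mesothelial list. Of 42 pan-endothelial genes 0 were higher by the rule, 15 were higher without overlap at any size, where 5.35% of all genes were, and 0 lower, with a median of 0.38. The mean of the list was 10.79, 11.23 and 11.24 in the low livers and 10.67, 10.68 and 10.71 in the high livers. WT replicate 1 was nearer to the high livers. Sox18, an endothelial transcription factor, read 9.16, 10.46 and 9.75 against 8.81, 8.86 and 8.86. Sinusoidal genes had a median of 0.16 over 35, with 8 higher without overlap, against 5.35% of all genes, and 0 lower. Stellate cell and fibroblast genes had a median of 0.07 over 41, and 0 genes of either list were higher by the rule. Among cholangiocyte genes 3 of 31 were lower, Krt8, Krt18 and Dsg2, which hepatocytes also express, and the list median was -0.02. By genotype, 17 of the 31 were lower in KO without overlap at any size, against 11.1% of all genes.

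T and NK cell genes were high in WT replicates 2 and 3 alone, with list means of 6.36, 6.33 and 6.46 on the low side and 7.93, 7.92 and 6.39 on the high side. Cd3g, a chain of the T cell receptor complex, read 6.24, 6.66 and 7.39 against 10.08, 10.29 and 7.01. KO replicate 2, a high-Hnf4a liver, thus lay with the low livers. The list median was -0.95, and 4 of 38 genes met the rule for the sides (Il7r, Gzma, Gzmb and Klrc1), where 3.91% of all genes did. By genotype, 4 of 38 were lower in KO by the same limit, against 0.276% of all genes, and 11 without overlap at any size, against 11.1%. Alas2, the first enzyme of haem synthesis in red cells, read 6.36, 6.66 and 6.30 against 10.25, 9.09 and 6.87. The 4 T and NK cell genes and Alas2 are counted among the 780 lower genes but are markers of blood cells. They were not the only members of blood cell lists there. The rule was met by 3 of 25 B and plasma cell genes and 2 of 20 erythroid genes, Alas2 included. It was also met by 1 of 26 monocyte and neutrophil genes and 1 of 27 dendritic cell and MHC class II genes.

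Cell cycle genes followed genotype. Of 50 genes, 38 were higher in KO without overlap, against 19.2% of all genes, and 29 of these by at least 1 log2 unit, against 0.687%. The 2 splits cross, so these 38 could not meet the rule for the sides, which 0 of the 50 met. The list means were 6.87, 8.60 and 8.29 in the low livers and 6.97, 7.05 and 7.49 in the high livers. KO replicates 1 and 3 stood highest and KO replicate 2 lay between them and the WT livers, and the list median between the sides was 0.73, with -0.14 within WT and 0.93 within KO. Plk1, a kinase of mitosis, read 6.77, 9.49 and 8.74 against 6.49, 6.75 and 7.86. WT replicate 1, the low liver without Cre, read like WT replicates 2 and 3.

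Kupffer cell and inflammatory genes were highest in WT replicate 1 and KO replicate 2. The means over 37 Kupffer cell and macrophage genes were 11.25, 10.59 and 10.68 in the low livers and 10.65, 10.56 and 11.22 in the high livers, so these 2 livers, 1 from each side, were level. Spic, a transcription factor of iron-recycling macrophages, read 10.89, 9.21 and 9.44 against 9.12, 8.87 and 10.19. Over 34 inflammatory cytokines and chemokines the means were 10.26, 9.23 and 9.27 against 9.59, 9.37 and 9.94. Il6, a cytokine that drives the acute phase response, read 10.98, 7.37 and 6.80 against 7.14, 6.44 and 9.37, and Tnf 11.64, 9.35 and 9.47 against 9.70, 9.60 and 10.56. Il10, a cytokine that restrains inflammation, read 12.60, 10.83 and 11.11 against 10.06, 9.76 and 12.06. For all 3 the order was WT replicate 1, then KO replicate 2, then the other 4 livers. In KO replicates 1 and 3, which also had low hepatocyte genes, these 3 cytokine genes were below both of those livers, and Il10 was above WT replicates 2 and 3. Whether these cytokine levels have a part in the hepatocyte values was not tested.

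**Figure D5:**
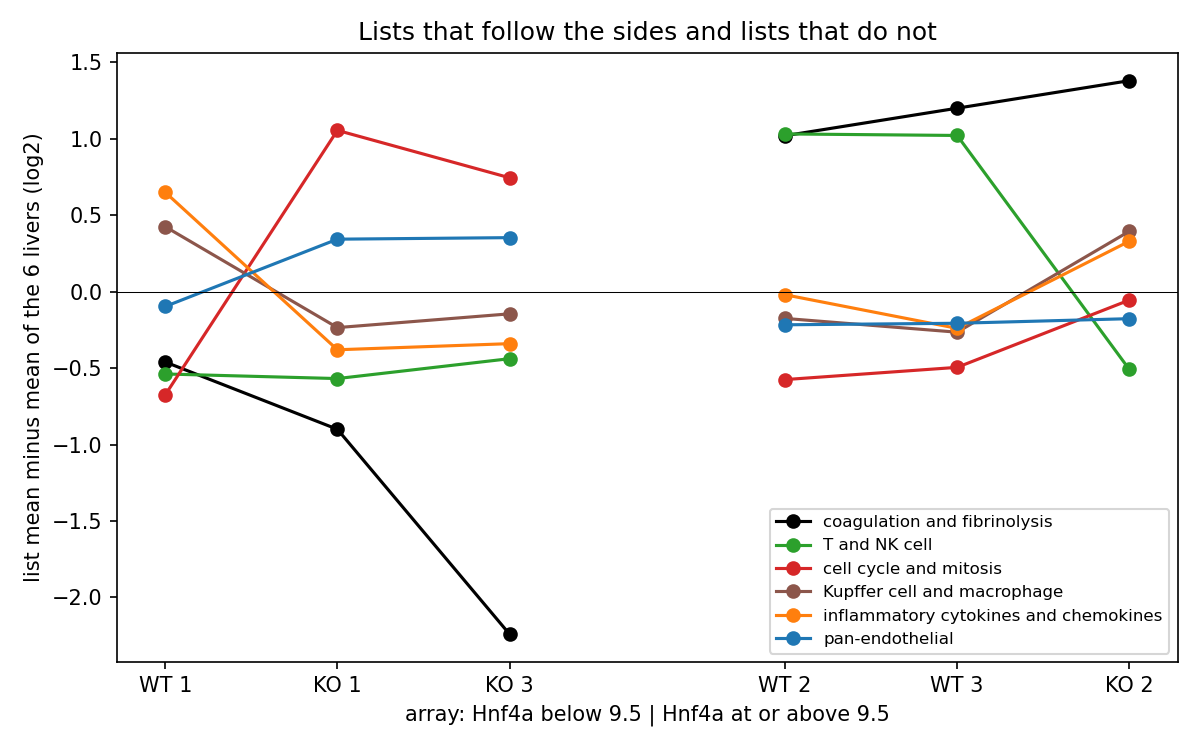
Mean of 6 gene lists in each liver, centred on the mean of the 6 livers (vertical axis, log2), with the low-Hnf4a livers at left and the high-Hnf4a livers at right on the horizontal axis. Lines join the arrays of a side and carry no order. Coagulation genes (black) separate the sides, whereas T and NK cell genes are high in WT 2 and WT 3, cell cycle genes in KO 1 and KO 3, and Kupffer cell and inflammatory genes in WT 1 and KO 2.

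The AS lines, described by the submitters as grown from liver endothelial cells, gave a second view of the lower genes. Of the 780 lower genes, 145 were lower in all 3 AS lines than in every liver, and in 142 all 3 lines were at or above the lowest high liver. The share of all genes that meets either condition was not computed, so these counts show no trait particular to the 780. Hnf4a was among the 142, at 10.95, 11.10 and 10.35 in the lines. Cyp3a13 read 9.73, 10.42 and 9.67 there, Krt8 13.36, 13.14 and 13.23, and Met, the receptor for hepatocyte growth factor, 10.84, 9.53 and 10.14. The mean over the 30 hepatocyte markers was nevertheless 7.06, 8.70 and 6.93 in the lines, with AS line 2 highest. The mean over the 42 pan-endothelial genes was 6.29, 6.37 and 6.39 in the lines, against 10.67 to 11.24 in the livers. Myct1, 1 of them, read 9.98, 10.91 and 11.02 in the low and 9.18, 9.29 and 10.03 in the high livers, and 5.18, 4.59 and 5.01 in the lines. Cdh1, E-cadherin of epithelial cells, read 11.43, 10.96 and 11.64 in the lines and 6.48 to 8.43 in the livers. These markers thus go against the endothelial name of the lines, which is kept here as a label. The lines combined Hnf4a at the level of the high livers with a hepatocyte marker mean below that of those livers.

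Genotype is the only comparison here that the choice of sides did not use, and it was tested with limma over all 19938 genes. At an adjusted p of 0.05, 0 genes were called, while 4479 had an unadjusted p under 0.05, and the smallest adjusted p was 0.0995. With the Hnf4a side as a second factor 1 gene was called, Etnppl, a periportal enzyme of phosphoethanolamine breakdown. Its KO minus WT difference was -1.72 log2 units (SE 0.0601, adjusted p 0.0218 in limma), against -2.04 (SE 0.381, adjusted p 0.102) without that factor. It read 6.69, 7.69 and 7.63 in WT replicates 1 to 3 and 4.98, 5.92 and 4.98 in KO replicates 1 to 3, so it was lower on the low side within each genotype as well. In that fit 5296 had an unadjusted p under 0.05. Its side factor was chosen from measured values of these same arrays, and Etnppl varies with it, which lowered the SE. The call of Etnppl therefore cannot decide on a genotype effect, and its KO values are dim. In the fit without the side factor the count rests on single arrays. It was 60 without WT replicate 1 and 1949 without KO replicate 2, the livers whose side differs from that of most of their genotype. With either left out, all remaining livers of that genotype are on one side, so these counts mix genotype with side. Hnf4a had a KO minus WT difference of -1.47 log2 units (SE 0.937) with an adjusted p of 0.386 in limma. Its values chose the sides and so differ within each genotype, which enters this SE, and the p cannot decide on a genotype effect.

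The genes that separated the genotypes most widely had to cross the sides, since each genotype lies on both. Notch1 had a KO minus WT difference of -3.10 log2 units (SE 0.302, adjusted p 0.0995 in limma), and of -3.06 with the side as a factor. Ltbp4, a binding protein of latent TGF-beta, read 12.24, 12.36 and 12.26 in WT replicates 1 to 3 and 9.34, 10.35 and 10.49 in KO replicates 1 to 3. Ackr1, a chemokine-binding receptor of vessels and red cells, had a difference of -1.52 (SE 0.104) and Cdh1, E-cadherin, one of -1.62 (SE 0.153), both at an adjusted p of 0.0995 in limma. On the higher side, Rab3b, a small GTPase of secretion, read 8.75, 8.71 and 8.96 in WT and 10.73, 10.43 and 10.85 in KO. Plau, the urokinase plasminogen activator, was 2.29 higher (SE 0.381) and 1.99 higher with the side as a factor. Its KO values were lowest in replicate 2, at 10.18, still above the highest WT value of 9.07. The split of 137 higher against 55 lower genes turned to 75 against 147 when each array was scaled to its 75th percentile, a scaling that moved the median KO minus WT difference of all genes to -0.18.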

How the data were processed

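The authors deposited log2 expression values per probe set for 9 whole-transcript mouse arrays, made with RMA and the oligo package per the submitters' processing notes (no versions given). Array medians ran from 6.53 to 6.63, so a general shift would be hidden, and no detection calls were used. Of 35556 probe sets, 21789 had 1 gene, 1621 several and 12146 none in the platform table. The gene ID of 21698 was found in a RefSeq table, which changed 0 symbols. The probe set of highest mean over the 9 arrays stood for each of the 19938 genes, 999 of which had more than 1. Levels were not compared between probe sets.

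The sides were compared by their means and by whether any arrays overlap. KO and WT were compared with limma 3.58.1 in R 4.3.3 (lmFit, eBayes, 2-sided, Benjamini-Hochberg over 19938 genes, threshold 0.05). Both procedures were tested on simulated data. The members, lists and motifs were chosen with earlier results of these data known. Genes named are the hepatocyte markers, the 12 lower and up to 12 higher genes with the widest gap (all 13 higher are named), 3 members of each list with the largest difference, and 6 per direction between genotypes, drawn on from the top, plus list members of contrasting behaviour named after their values were seen. Rankings by gap left out predicted genes and similar symbols. Promoters came from RefSeq (GRCm38.p6). Figures were drawn with matplotlib 3.10.9. Alternatives were other scaling, normalization, probe set choice, a filter on dim genes (mean under 7.12), minimum differences of 0.5 and 2 log2 units, other limma designs, and leaving out each liver.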

Additional observations from a re-analysis of the deposited data

Results flagged for a closer look

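For 10 gene lists the list mean differed between the sides in opposite directions in the 2 genotypes, with every low liver of one genotype above its high livers and every low liver of the other below. The values below are the difference within KO minus the difference within WT, in log2 units, and these differences between genotypes were not tested.

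Inflammatory cytokines and chemokines differed by -1.48 (0.78 within WT and -0.69 within KO), Kupffer cell and macrophage genes by -1.23 (0.64 and -0.58) and immediate early genes by -0.68 (0.30 and -0.38). In these 3 the low liver of WT was above its high livers. Cell cycle and mitosis genes differed by 1.10 (-0.14 and 0.95), with KO replicates 1 and 3 high. Arterial, venous and capillary endothelial genes differed by 0.48 (-0.04 and 0.44), with Aplnr, Esm1 and Edn1 high in KO replicates 1 and 3, and cholangiocyte genes by -0.46 (0.06 and -0.40). Ribosomal protein genes differed by 0.34 (-0.11 and 0.23), platelet and megakaryocyte genes by 0.33 (-0.16 and 0.18), housekeeping genes by 0.22 (-0.17 and 0.05) and the Notch list by 0.18 (-0.03 and 0.15).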

How the results depend on the processing

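The count of genes lower on the low-Hnf4a side was 1295 at a minimum difference of 0.5 log2 units and 346 at 2, and 754 to 874 with 1 liver left out. The count of higher genes was 34 after 75th percentile scaling, 28 after quantile normalization of the livers alone, 200 and 1 at minimum differences of 0.5 and 2, and 13 to 276 with 1 liver left out. For KO higher than WT the counts were 75 with 75th percentile scaling, 91 without dim genes, 1158 and 11 at the 2 minimum differences, and 84 to 357 with 1 liver left out. For KO lower they were 147, 36, 308 and 9, and 50 to 678. The median KO minus WT difference of all genes moved to -0.18 with that scaling and to 0.17 without dim genes. Genes called by limma at 0.05 numbered 1 with every probe set singly, 1 with the side as a factor, 2 with all 9 arrays, 5744 with array weights (which gave WT replicate 1 a weight of 0.274 and KO replicate 2 one of 0.315), 366 at an adjusted p under 0.10, and 0 to 1949 with 1 liver left out. The other alternatives of limma gave 0. Lists with a median of -1 or below numbered 14 to 17, and 16 list medians moved by more than the spread between arrays under an alternative, while 446 did not. Signs changed in 37 of the 462, in 12 lists whose medians were at most 0.15 in size and at most 0.18 after the change. The replicate block gave 0 calls (smallest adjusted p 0.213). Same-numbered WT and KO livers had deviations correlated at 0.31, 0.43 and -0.39, and WT replicate 1 with KO replicate 3 at 0.47. The signs follow the sides, since replicates 1 are both low, replicates 2 both high and replicates 3 on opposite sides. Whether the numbers pair the animals therefore cannot be told from them. The cause of these changes was not tested. With 3 arrays a side, dim values can be background and a difference against them understates the true one.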

Other observations

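Genes that set 1 liver or the pair of KO livers apart were picked out after their values were seen. A selection by size of difference kept 29 genes in which KO replicates 1 and 3 both lay above the other 4 livers. The smallest difference between the sides within KO among the 29 was 1.5 log2 units, in Prc1. The 29 are not all genes with this order, which Plau, Plk1 and Anln also had. The share of all genes with it was not computed. Levels were unequal in some of the 29: A2m read 10.56 in KO replicate 1 and 6.58 in KO replicate 3, against 6.13 to 6.49. Genes of endothelium were among them: Esm1, a marker of endothelial tip cells, read 9.45 and 8.73 there and 6.23 to 7.06 in the other 4 livers. Edn1, the vasoconstrictor endothelin, read 10.04 and 9.26 against 7.28 to 8.31, and Apln, the ligand of Aplnr, 8.57 and 7.85 against 6.52 to 6.95. Sox11, a transcription factor of developing tissue, read 8.50 and 8.26 against 5.64 to 6.08, and in the AS lines 9.04, 8.36 and 8.01. Imprinted genes were among the 29 too, with Peg10 at 11.79 and 10.65 against 8.0 to 9.35 and Grb10 at 10.94 and 10.85 against 9.07 to 9.38.

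WT replicate 1 was the highest liver by at least 1 log2 unit in 15 genes and the lowest by as much in 7, with predicted genes and similar symbols left out. In Il6, Tnf and Ccl4, which are among the 15, KO replicate 2 was second highest. Ly96, the partner of the endotoxin receptor, read 11.38 there and 8.05 to 9.65 in the other 5 livers, Ifnb1 6.17 against 4.67 to 4.77, and Ccl4, a chemokine of activated macrophages, 11.35 against 8.48 to 10.29. Among the low ones, Ptger1, a prostaglandin E receptor, read 7.26 against 8.68 to 9.85, and Cyp7b1, an oxysterol hydroxylase, 7.03 against 8.05 to 9.15.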
